A study of Mus musculus with 26 samples.

Results

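The sites described here are the places where JUND, FOSL2 or both were listed as bound in untreated mouse adipocytes. They were built from the deposited peak lists of the JUND and the FOSL2 ChIP-seq libraries, which hold 23509 and 22716 peaks. Every peak is a window of 200 bp with a score set by the authors, and windows that overlapped by at least 1 bp were joined into 1 site. The 46225 peaks gave 30631 sites, out of 67815 sites formed in the same way from all 15 peak lists of the series. Of these, 7917 sites held JUND windows only, 7126 held FOSL2 windows only, and 15588 held both and are called shared. The joining rule made the 3 classes and used neither scores nor any other list.

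The cells were 3T3-L1, an established mouse fibroblast line that turns into fat cells in culture after exposure to dexamethasone, insulin and 3-isobutyl-1-methylxanthine. All lists come from mature adipocytes of this line, so a single line stands for the adipocyte here. JUND, FOSL2, ATF2, CEBPa and CEBPb were mapped in untreated cells, with 1 list each. The cofactors MED1, CBP, p300 and NCOR were mapped in untreated cells and in cells given 1 µM rosiglitazone, an agonist of the nuclear receptor PPARγ, dissolved in DMSO. MED1 had 2 untreated lists with replicate numbers. The labels do not tell whether these were separate cultures, and the spread between them may be technical only. The labels do not say whether untreated cells received DMSO. With 1 list for JUND and 1 for FOSL2, the comparison between them has no replicate check and no test. Shares of sites are given with 95% intervals (Wilson for a share, Newcombe for a difference of shares), which cover counting error only and treat sites as independent, which neighbouring sites need not be. Gene names and marker genes of the cell type were not analysed here, and positions are in mm8, counted from 1.

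JUND and FOSL2 are subunits of AP-1, a leucine zipper transcription factor that binds DNA as a dimer. JUND belongs to the JUN family, whose members can pair with one another or with a FOS family member. FOSL2, also called Fra-2, belongs to the FOS family, which needs a JUN family or related partner to bind DNA well. ATF2 is a related leucine zipper factor that can pair with JUN proteins, and CEBPa and CEBPb are factors of adipocyte differentiation. MED1 is a subunit of Mediator, which links enhancers to RNA polymerase, CBP and p300 are histone acetyltransferases that act as coactivators, and NCOR is a corepressor that recruits histone deacetylases.

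Most sites of either factor were also sites of the other. Shared sites were 66.3% (65.7 to 66.9) of the 23505 JUND sites and 68.6% (68.0 to 69.2) of the 22714 FOSL2 sites. Over all 30631 sites, 50.9% were shared, 25.8% were JUND-only and 23.3% were FOSL2-only. Chains of windows hardly mattered, since 6 sites held more than 2 windows and the longest site was 547 bp.

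The shared sites were the high end of both lists. The median JUND score was 2.21 at shared sites (quartiles 1.55 and 3.48) and 1.38 at JUND-only sites (1.16 and 1.71). For FOSL2 it was 2.51 at shared sites (1.75 and 4.15) and 1.31 at FOSL2-only sites (1.20 and 1.64). Scores are not comparable between lists, because no source used here gives the divisor behind them, so each peak was also placed by its percentile within its own list, with 100 the highest score. On that scale the median JUND-only site stood at 29.3 and the median shared site at 63.1 in the JUND list. The median FOSL2-only site stood at 20.5 and the median shared site at 64.1 in the FOSL2 list.

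The shared share climbed with score over the whole range of both lists. Over quintiles of the JUND list from lowest to highest score, it was 37.7%, 50.7%, 65.8%, 81.4% and 95.9%. Over quintiles of the FOSL2 list it was 31.5%, 48.9%, 72.2%, 90.7% and 99.0%. The FOSL2 list thus ran from a lower share at its low end to a higher share at its high end. Unshared sites in the highest quintile were few, 193 of 4694 for JUND and 44 of 4535 for FOSL2. Of the 1000 JUND peaks with the highest scores, 99.7% lay at shared sites, and of the 1000 highest FOSL2 peaks 99.2% did. A total of 791 sites were in both of these top sets.

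**Figure D1:**
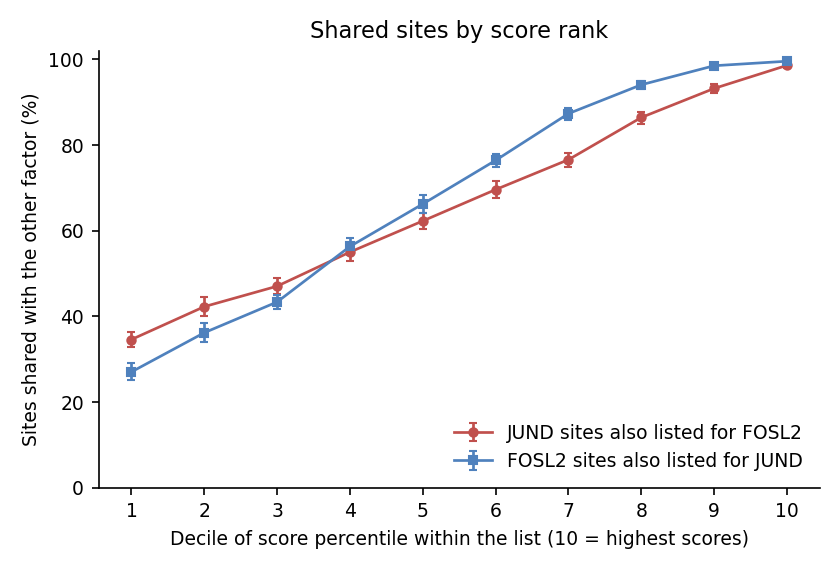
Share of sites that were also listed for the other factor (y axis, percent) by decile of score percentile within the JUND list (red circles) or the FOSL2 list (blue squares), with 95% Wilson intervals as bars. Both lines climb in every decile, from 34.6% to 98.6% for JUND and from 27.1% for FOSL2 to nearly all of its sites.

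Where both factors were listed, their scores ranked the sites alike. Across the 15588 shared sites Spearman's rho between the JUND and the FOSL2 score was 0.80. This is a description across sites that share the same cells and the same underlying genome, and sites are not replicates. The median absolute difference between the JUND and the FOSL2 percentile of a site was 9.30 points, and 52.3% of shared sites differed by at most 10 points. A gap of more than 30 points was seen at 12.4% of shared sites. JUND stood ahead at 853 of these and FOSL2 at 1077.

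The lists may differ in how far down they reach. Read depth is unknown. JUND scores fell on a grid of 18.1 steps per score unit and FOSL2 scores on one of 9.14 steps. The lowest listed score was 1.00 for JUND, or 18 steps, and 1.09 for FOSL2, or 10 steps. The part of this difference in the class sizes and in the cofactor shares below was not tested.

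At shared sites the centres of the windows nearly coincided. The median distance between the JUND and the FOSL2 centre was 17 bp, with quartiles of 8 and 33 bp and a 95th percentile of 71 bp. Centres lay within 10 bp at 32.9% of shared sites, within 25 bp at 65.6% and within 50 bp at 88.6%, while 1.97% were more than 100 bp apart. Neither factor was displaced in one direction along the chromosome. The FOSL2 centre had the higher coordinate at 7599 sites, the lower at 7714 and the same at 275, and the median signed distance was 0 bp. The strand of the underlying motif was not used here.

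Distances shrank as scores grew. Over quintiles of the mean percentile, from low to high, the median distance was 24, 24, 21, 17 and 12 bp. In the highest quintile 82.4% of centres lay within 25 bp, against 51.6% in the lowest. Shared sites with ATF2 had a median of 18 bp and those without it 17 bp, but distances over 100 bp were more frequent with ATF2, at 3.25% against 0.96%.

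The 1 bp overlap rule cut through a thinly filled range of distances. Among JUND peaks, 85 lay 150 to 199 bp from the nearest FOSL2 peak, just inside the rule, and 63 lay 200 to 249 bp away, just outside it. For FOSL2 peaks the corresponding numbers were 84 and 62. Most unshared peaks were far from the other factor. The nearest FOSL2 peak was a median of 11793 bp from an unshared JUND peak, and the nearest JUND peak a median of 14577 bp from an unshared FOSL2 peak. Within 1000 bp of the other factor lay 10.4% of unshared JUND peaks and 9.68% of unshared FOSL2 peaks.

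**Figure D2:**
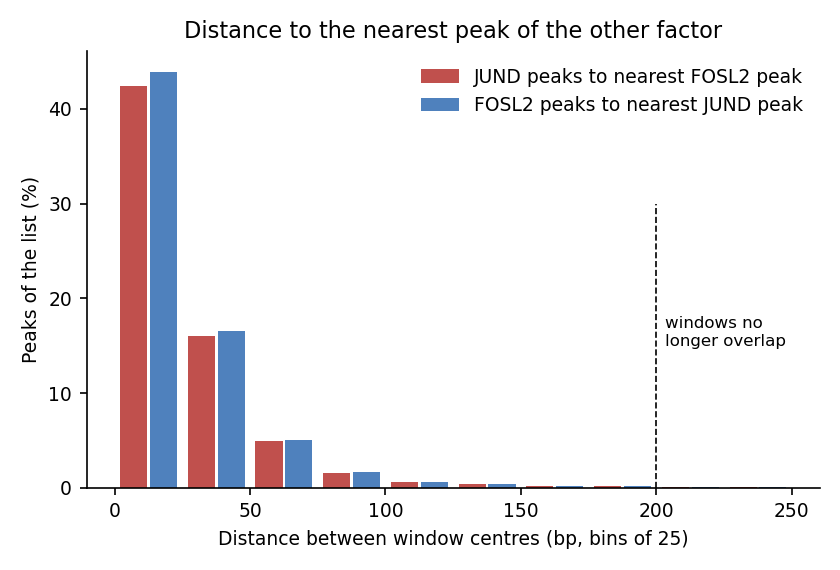
Distance in bp from each JUND peak to the nearest FOSL2 peak (red) and from each FOSL2 peak to the nearest JUND peak (blue), as percent of the list per bin of 25 bp up to 249 bp. The first bin holds 42.4% and 43.9% of peaks, and the bars are near 0 where windows cease to overlap at 200 bp (dashed line).

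Cofactors were listed most often at JUND-only sites and least often at FOSL2-only sites. CBP was listed at 2960 JUND-only sites, 37.4% (36.3 to 38.5), at 789 FOSL2-only sites, 11.1% (10.4 to 11.8), and at 5447 shared sites, 34.9% (34.2 to 35.7). As background, CBP was listed at 27.0% of the 49656 sites of the 5 transcription factors together. JUND-only sites thus lay above that background and FOSL2-only sites below it. The difference between JUND-only and FOSL2-only sites was 26.3 points (25.02 to 27.6), a ratio of 3.38.

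p300, the paralog of CBP, gave the same order. It was listed at 35.9% of JUND-only sites (34.9 to 37.0), 10.8% of FOSL2-only sites (10.1 to 11.5) and 30.6% of shared sites (29.9 to 31.3), with a background of 25.1%. The difference between JUND-only and FOSL2-only sites was 25.2 points (23.9 to 26.4).

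The corepressor NCOR did not run opposite to the coactivators. It was listed at 43.2% of JUND-only sites (42.2 to 44.3), 14.4% of FOSL2-only sites (13.6 to 15.2) and 33.2% of shared sites (32.5 to 34.0), with a background of 34.8%. The difference between JUND-only and FOSL2-only sites was 28.8 points (27.5 to 30.2). NCOR also stood at 39.7% of the 19068 sites of ATF2, CEBPa or CEBPb that held neither JUND nor FOSL2. There CBP was at 22.1% and p300 at 21.3%, both below their shares at JUND-only and shared sites.

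MED1 was the sparsest of the 4 cofactors and was listed in both untreated replicates. In replicate 1 it was at 17.0% of JUND-only sites, 3.48% of FOSL2-only sites and 12.7% of shared sites, with a background of 9.87%. In replicate 2 it was at 12.5%, 3.28% and 8.21% of these classes, with a background of 7.68%. Both lists put JUND-only sites highest and FOSL2-only sites lowest. The mean was 14.7% ± 3.14 (SD, n = 2) at JUND-only, 3.38% ± 0.14 (SD, n = 2) at FOSL2-only and 10.4% ± 3.15 (SD, n = 2) at shared sites. The difference between JUND-only and FOSL2-only sites was 13.5 points in replicate 1 and 9.23 points in replicate 2, with a mean of 11.4 ± 3.01 (SD, n = 2), so it exceeded the spread between the lists.

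Sites with both factors did not have higher cofactor shares than sites with JUND alone. The share at shared sites differed from that at JUND-only sites by -4.31 points in replicate 1 and -4.31 points in replicate 2 of MED1. For CBP the difference was -2.44 points (-3.75 to -1.15), for p300 -5.35 points (-6.63 to -4.07) and for NCOR -9.999 points (-11.3 to -8.68). The CBP difference depended on the setting. With only the upper 50% of the CBP list it was 0.40 points (-0.72 to 1.51), that is, of the opposite sign with an interval that spans 0.

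**Figure D3:**
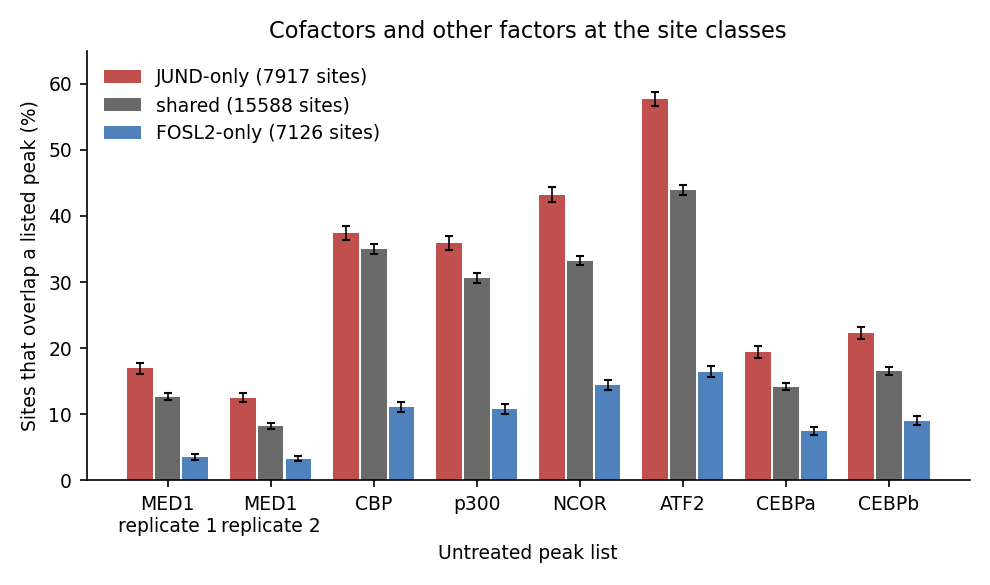
Share of JUND-only (red), shared (grey) and FOSL2-only (blue) sites that overlap a peak of each untreated list on the x axis (y axis, percent), with 95% Wilson intervals for counting error. In all 8 lists the JUND-only bar is the highest and the FOSL2-only bar the lowest.

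JUND-only sites stood above FOSL2-only sites across the genome, while their place relative to shared sites varied between chromosomes for CBP and MED1 replicate 1. On each of the 20 chromosomes JUND-only sites had a higher share than FOSL2-only sites for each of the 4 cofactors. The difference per chromosome ran from 21.1 to 28.6 points for CBP, from 20.2 to 32.9 for p300 and from 24.5 to 33.0 for NCOR. For MED1 it ran from 8.04 to 19.8 in replicate 1 and from 5.67 to 14.3 in replicate 2. JUND-only sites lay above shared sites on 20 chromosomes for p300, NCOR and MED1 replicate 2, on 18 for MED1 replicate 1 and on 15 for CBP.

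Because JUND-only sites had low JUND scores and cofactor shares grew with score, sites were next compared at like score. Over quintiles of the JUND list from low to high score, CBP was at 22.5%, 37.1%, 49.2%, 61.3% and 64.8% of JUND-only sites. At shared sites in the same quintiles it was at 13.2%, 19.9%, 26.7%, 36.6% and 55.5%. The JUND-only share was higher in 5 of 5 quintiles. NCOR showed the same with a wider gap, 27.5%, 41.2%, 55.7%, 71.1% and 81.3% of JUND-only sites against 13.9%, 21.4%, 26.8%, 34.5% and 50.4% of shared sites. For MED1 and p300, too, JUND-only sites lay above shared sites in 5 of 5 quintiles.

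When each quintile counted equally, the difference of shared from JUND-only sites was -16.6 points for CBP, -16.1 for p300, -26.0 for NCOR and -10.3 for the mean of both MED1 lists. The highest quintile held 193 JUND-only sites, so its shares are less precise, with an interval of 57.8% to 71.2% for CBP.

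The FOSL2 score ordered shared sites differently. At FOSL2-only sites CBP was at 7.24%, 11.9%, 14.6%, 17.0% and 27.3% over quintiles of the FOSL2 list from low to high score, the last resting on 12 of 44 sites. Shared sites in the same quintiles stood at 31.7%, 29.5%, 28.7%, 28.6% and 49.1%. A FOSL2 score from the lowest to the fourth quintile therefore went with almost the same CBP share at shared sites. NCOR at shared sites was likewise nearly level over the first 4 quintiles, at 30.8%, 30.0%, 28.5% and 27.8%, and reached 44.1% in the last. The p300 share fell over the first 4 quintiles, at 29.5%, 28.5%, 26.4% and 24.3%, and was 40.7% in the last. MED1 replicate 1 fell from 13.9% to 10.4% over the first 4 and stood at 13.7% in the last. MED1 replicate 2 stayed between 7.14% and 9.28% throughout. FOSL2-only sites lay below shared sites in 5 of 5 quintiles for MED1, CBP and p300, and in 4 of 5 for NCOR. The NCOR exception was a tie in the fourth quintile, at 27.8% in both classes. MED1 replicate 1 was nearly tied in the highest quintile, at 13.6% of FOSL2-only sites (6.40 to 26.7) and 13.7% of shared sites.

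**Figure D4:**
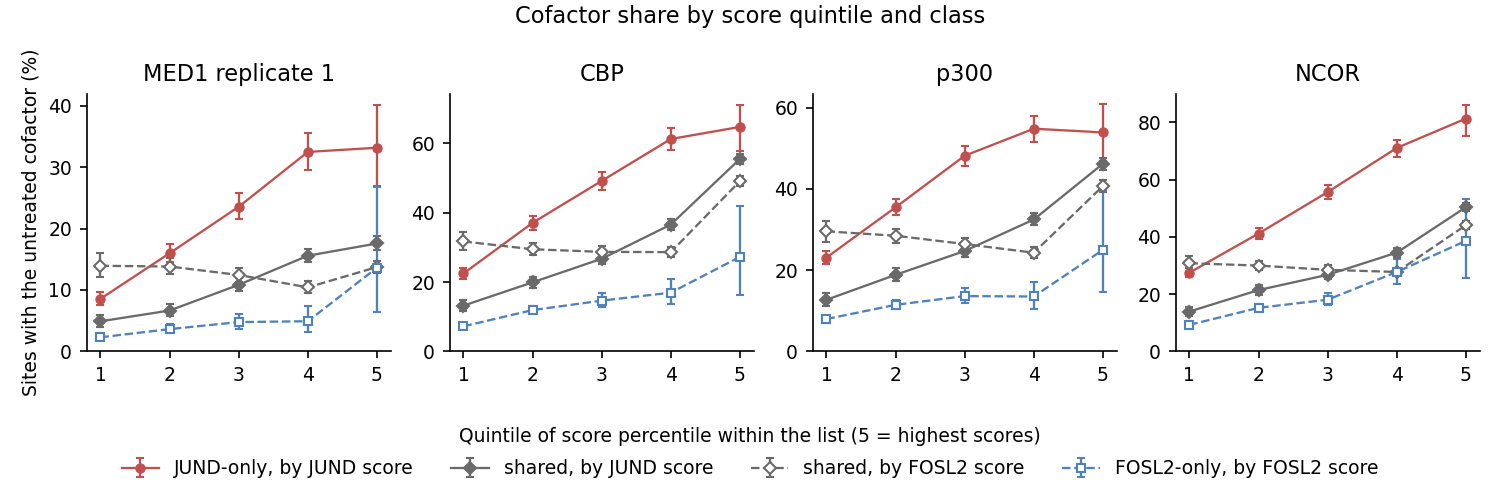
Share of sites with an untreated cofactor (y axis, percent, a panel each for MED1 replicate 1, CBP, p300 and NCOR) by quintile of score percentile, for JUND-only and shared sites along the JUND list (solid lines) and for shared and FOSL2-only sites along the FOSL2 list (dashed lines), with 95% Wilson intervals. The solid red JUND-only line lies above the solid grey shared line throughout, and the dashed grey line does not climb before the last quintile.

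The balance of JUND and FOSL2 within the shared sites followed the same direction. Shared sites were split into quintiles by the JUND percentile minus the FOSL2 percentile, a comparison chosen after seeing the data. The quintile in which FOSL2 stood furthest ahead had a median difference of -25.03 points and the quintile in which JUND stood furthest ahead one of 21.8 points. From FOSL2 ahead to JUND ahead, CBP was listed at 13.3%, 24.2%, 47.0%, 41.2% and 49.0% of sites. For p300 the shares were 11.9%, 21.0%, 40.3%, 35.3% and 44.4%, and for NCOR 13.7%, 23.1%, 43.5%, 39.6% and 46.4%. MED1 replicate 1 ran from 3.34% to 23.7% and replicate 2 from 2.25% to 15.8%.

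The order was not a steady climb for CBP, p300 and NCOR, where the middle quintile stood above the fourth. That middle quintile held the sites with the highest scores, with a median mean percentile of 88.6. The end quintiles were closer to each other in score, with medians of 44.0 and 47.9. Between these end quintiles the difference was 35.6 points for CBP (33.5 to 37.7), 32.5 for p300 (30.4 to 34.6) and 32.8 for NCOR (30.6 to 34.9). For MED1 it was 20.3 points in replicate 1 and 13.5 in replicate 2.

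Within bands of like mean percentile the direction was the same. Among shared sites with a mean percentile below 40, CBP was at 12.4% of those with FOSL2 ahead by more than 10 points, 21.5% of those within 10 points and 36.5% of those with JUND ahead by more than 10. Between 40 and 70 the corresponding shares were 14.3%, 27.6% and 51.9%, and from 70 upward 21.4%, 48.1% and 64.2%. NCOR with JUND ahead stood at 37.5%, 48.4% and 58.6% in the 3 bands, and with FOSL2 ahead at 13.9%, 14.4% and 19.5%. Below a mean percentile of 70, shared sites led by FOSL2 had CBP and NCOR shares close to those of all FOSL2-only sites. The latter were 11.1% and 14.4%, at a median FOSL2 percentile of 20.5, so score was not matched. Over quintiles of the FOSL2 list from low to high score, NCOR was at 9.28%, 15.2%, 18.1%, 27.8% and 38.6% of FOSL2-only sites. The last of these rested on 17 of 44 sites. Below a mean percentile of 70, NCOR with FOSL2 ahead thus lay below its share at FOSL2-only sites in quintiles 2 to 5. For quintile 2 the intervals overlapped. The likeness was not tested at like score.

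**Figure D5:**
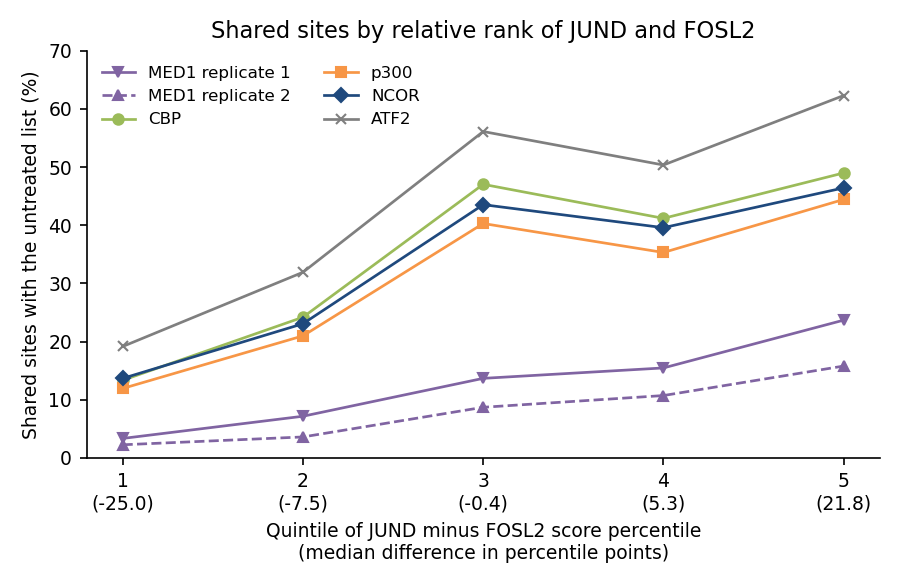
Share of shared sites with each untreated list (y axis, percent) by quintile of the JUND minus the FOSL2 score percentile (x axis, from FOSL2 ahead to JUND ahead, with the median difference in percentile points in brackets); no error is drawn. CBP goes from 13.3% to 49.0% and ATF2 from 19.1% to 62.3%, with a high middle quintile.

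The other transcription factors were spread over the classes in the same order as the cofactors. ATF2 was listed at 57.7% of JUND-only sites (56.6 to 58.8), 16.4% of FOSL2-only sites (15.6 to 17.3) and 44.0% of shared sites (43.2 to 44.7), against 41.1% of all JUND and FOSL2 sites. The ATF2 difference between JUND-only and FOSL2-only sites was 41.3 points (39.9 to 42.7), the widest of the 8 lists. CEBPa was at 19.4%, 7.44% and 14.2% of JUND-only, FOSL2-only and shared sites, with a background of 14.0%. CEBPb was at 22.2%, 8.98% and 16.6%, with a background of 16.3%. Within shared sites ATF2 went from 19.1% in the quintile led by FOSL2 to 62.3% in the quintile led by JUND.

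Sites without any of these 3 factors were 38.7% of JUND-only, 80.2% of FOSL2-only and 53.4% of shared sites. Cofactors were scarce there in every class. CBP was at 10.2% of such JUND-only sites (9.19 to 11.3), 2.96% of FOSL2-only (2.55 to 3.43) and 8.39% of shared sites (7.82 to 9.01). NCOR was at 14.8%, 4.76% and 8.99%. The difference in CBP between JUND-only and FOSL2-only sites was 7.25 points there, against 26.3 over all sites, while the ratio of the 2 shares stayed above 3. MED1 was at 4.01%, 0.84% and 1.46% of these sites in replicate 1 and at 2.48%, 0.60% and 0.72% in replicate 2. The difference between the end quintiles of the rank gap also shrank at shared sites without these factors, where the quintiles were redrawn, to 5.47 points for CBP, 5.95 for p300, 6.01 for NCOR and 0.90 for the mean of both MED1 lists.

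With ATF2 and a C/EBP factor present, the gap between JUND-only and FOSL2-only sites was narrower than over all sites for CBP, p300, NCOR and MED1 replicate 2 and not for MED1 replicate 1. CBP was at 78.0% of the 1559 such JUND-only sites (75.9 to 79.98), 72.7% of the 432 FOSL2-only sites (68.3 to 76.7) and 86.3% of the 2282 shared sites (84.8 to 87.6). The corresponding shares were 74.0%, 63.2% and 78.3% for p300 and 84.7%, 79.2% and 87.3% for NCOR. MED1 was at 37.8%, 20.6% and 41.3% in replicate 1 and at 36.0%, 28.2% and 34.0% in replicate 2. Shared sites here had the highest share in each list except MED1 replicate 2. With ATF2 and no C/EBP, CBP was at 43.4% of JUND-only, 33.9% of FOSL2-only and 58.2% of shared sites, so the order of shared and JUND-only sites was the reverse of that over all sites. NCOR at these sites was 49.1%, 39.7% and 48.6%. With a C/EBP factor and no ATF2, shared sites lay below JUND-only sites, as over all sites. CBP was there at 43.8% of the 283 JUND-only (38.2 to 49.6), 23.1% of the 242 FOSL2-only (18.3 to 28.8) and 29.3% of the 406 shared sites (25.1 to 33.9), and p300 at 41.3%, 24.0% and 28.3%. Scores differed along with the classes, since the median JUND percentile of shared sites with ATF2 and no C/EBP was 75.6 and that of JUND-only sites 32.8, and the part of score in this reversal was not tested.

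Counting the 4 cofactors together, with MED1 taken as listed in at least 1 untreated replicate, set the FOSL2-only sites apart. None of the 4 was listed at 79.3% of FOSL2-only sites (78.3 to 80.2), 52.2% of shared sites (51.4 to 53.0) and 42.6% of JUND-only sites (41.5 to 43.7). Over all 30631 sites this share was 56.0%. All 4 were listed at 14.0% of JUND-only (13.2 to 14.8), 11.2% of shared (10.7 to 11.7) and 2.83% of FOSL2-only sites (2.47 to 3.25), against 9.96% of all sites.

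Among sites with any cofactor, the makeup differed as well. NCOR without any coactivator made up 23.0% of the 1476 FOSL2-only sites with a cofactor (21.0 to 25.3), 14.7% of the 4546 JUND-only sites (13.7 to 15.7) and 11.9% of the 7447 shared sites (11.2 to 12.7). Most NCOR sites also held an acetyltransferase. CBP or p300 was listed at 81.6% of NCOR sites that were shared, 78.6% of those that were JUND-only and 64.8% of those that were FOSL2-only. Where CBP or p300 was present, both were listed at 59.8% of shared, 58.0% of JUND-only and 46.9% of FOSL2-only sites.

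Cofactor peaks at FOSL2-only sites also ranked lower and lay further from the centre. The median percentile of the CBP peak within the CBP list was 62.5 at shared, 56.6 at JUND-only and 49.7 at FOSL2-only sites. For NCOR it was 65.1 at both shared and JUND-only sites and 58.6 at FOSL2-only sites. The CBP centre was a median of 31 bp from the JUND centre at JUND-only sites and 41 bp from the FOSL2 centre at FOSL2-only sites. At shared sites it was 28 bp from the JUND centre and 31 bp from the FOSL2 centre. NCOR lay 32 bp from JUND at both JUND-only and shared sites, 36 bp from FOSL2 at shared sites and 42 bp from FOSL2 at FOSL2-only sites. MED1 replicate 1 lay 32 bp from JUND at JUND-only sites, 35 bp from JUND and 39 bp from FOSL2 at shared sites and 42.5 bp from FOSL2 at FOSL2-only sites. In all 3 lists the distance was longest at FOSL2-only sites, while the order of JUND-only and shared sites varied. Centre distances also depend on scores, as shown for the JUND to FOSL2 distance, and the part of score in these differences was not tested.

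The classes were mixed along the chromosomes. Shared sites made up from 46.9% of sites on chromosome X to 53.2% on chromosome 1. The nearest other site was shared for 51.1% of JUND-only, 50.5% of FOSL2-only and 51.4% of shared sites, close to the 50.9% of all sites that were shared. FOSL2-only sites lay a little further from their neighbours, with a median of 10254 bp to the next site, against 7564 bp for JUND-only and 8278 bp for shared sites.

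Regions were named by rank alone, without regard to genes or cofactors. The shared site with the highest mean percentile lay on chromosome 10 from 117140141 to 117140355, with a JUND score of 18.74, the highest of the list, and a FOSL2 score of 32.14. No other untreated list held it, while MED1 replicate 1 and p300 were listed there after rosiglitazone. The second, on chromosome 11 from 3053751 to 3053968, had scores of 17.42 and 28.75 and was in none of the 13 other lists. The pair of shared sites of highest rank thus had no listed cofactor in untreated cells, as had 52.2% of all shared sites. Score was not matched here, and cofactors were more frequent at high scores. In the highest quintile of the JUND list, CBP alone was at 55.5% of shared sites.

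The next 4 named shared sites held at least 3 cofactors each, while over all shared sites 11.3% held 3 and 11.2% held all 4. The third, on chromosome 6 from 143597904 to 143598131, with scores of 16.64 for JUND and 24.49 for FOSL2, was in all 8 other untreated lists. The sites on chromosome 6 from 100292632 to 100292832 and on chromosome 9 from 64998691 to 64998892 held ATF2, both C/EBP factors, CBP, p300 and NCOR, and no untreated MED1. Their JUND and FOSL2 centres were 1 and 2 bp apart. The site on chromosome 6 from 52755246 to 52755446, with centres 1 bp apart, held ATF2, CBP, p300 and NCOR. In the highest quintile of the JUND list, CBP was at 55.5%, p300 at 46.2% and NCOR at 50.4% of all shared sites.

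The 4 JUND-only sites of highest rank all held ATF2 and NCOR. They lay on chromosome 19 from 11837290 to 11837489 with a JUND score of 9.18, on chromosome 4 from 97496190 to 97496389 with 8.18, on chromosome 1 from 51233500 to 51233699 with 6.91, and on chromosome 10 from 75148030 to 75148229 with 6.41. CBP was listed at the last pair of these and p300 at the site on chromosome 4. None held untreated MED1. Among all 193 JUND-only sites in the highest quintile of the JUND list, ATF2 was at 93.3% and NCOR at 81.3%. CBP was at 64.8% of them, p300 at 53.9%, and MED1 at 33.2% in replicate 1 and 20.7% in replicate 2.

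The 4 FOSL2-only sites of highest rank stood nearer to the top of their list, at percentiles of 99.7 and above, than the 4 JUND-only sites, which stood at 95.5 to 98.7. The FOSL2 score on chromosome 2 from 77796600 to 77796799 was 32.91, the highest of the whole FOSL2 list, and yet no JUND window overlapped it. Further FOSL2-only sites lay on the same chromosome from 77752401 to 77752600 with a score of 25.37 and from 77822229 to 77822428 with 17.60. Within 50 kb of the first of these 3 there were 4 FOSL2 peaks, itself included, and 0 JUND peaks. The second likewise had 4 FOSL2 peaks and 0 JUND peaks within 50 kb, and the third had 4 FOSL2 peaks and 1 JUND peak. The fourth lay on chromosome 11 from 3061355 to 3061554 with a score of 16.84, close to the second named shared site. CBP, p300, MED1, ATF2 and the C/EBP factors were in untreated cells listed at none of these 4 sites, and NCOR was listed at 2 of them. Among all 44 FOSL2-only sites in the highest quintile of the FOSL2 list, NCOR was at 17, CBP at 12 and p300 at 11. ATF2 was at 11 of these 44 sites, CEBPb at 10 and CEBPa at 9, and MED1 at 6 in replicate 1 and 1 in replicate 2. The 4 named sites are too few to be told apart from these shares. Whether reads map uniquely at the 4 named FOSL2-only sites, or at the second named shared site, was not checked, since no genome of this build was used. Their scores are given as listed.

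ATF2 was listed at 3 of the 3 named shared sites with JUND furthest ahead and at 1 of the 3 with FOSL2 furthest ahead, against 44.0% of all shared sites. JUND stood furthest ahead on chromosome 4 from 108546295 to 108546495, with a JUND percentile of 83.6 and a FOSL2 percentile of 4.34. It was followed by chromosome 5 from 92279497 to 92279714 and chromosome 11 from 74680265 to 74680469, and the site on chromosome 4 also held CBP, p300 and NCOR. FOSL2 stood furthest ahead on chromosome 19 from 33393322 to 33393538, at 81.3 against 5.85 for JUND, where ATF2 was the only other list. The sites on chromosome 10 from 92568636 to 92568864 and on chromosome 7 from 4528129 to 4528343 were in no other list.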

How the data were processed

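JUND, FOSL2 and 8 further untreated ChIP-seq peak lists of 3T3-L1 adipocytes, and 5 rosiglitazone lists, were used. The tools were Bowtie, HOMER and bedtools and the build was mm8, per the submitters' processing notes. No tool version, peak threshold or input correction is given in the sources used here. Each library came with its own list, and its peaks carry a score deposited by the authors, which served only to rank peaks within a list. Read depth is unknown, and intervals cover counting error only. Windows of 200 bp were joined at an overlap of 1 bp, and a cofactor counted as listed where its window overlapped the site. The code was tested on simulated data. Regions were named by rank: the 6 shared sites of highest mean percentile, the 4 highest JUND-only and FOSL2-only sites, and the 3 shared sites with the widest percentile gap each way. The members, lists and rules were chosen with earlier results of these data known. Alternatives were an overlap of 50%, the upper 50% of lists, equal list lengths, a cofactor within 500 bp, equal weight to score quintiles, peaks counted singly, sites without ATF2 and C/EBP, each MED1 list left out and, added after seeing the data, unshared sites over 1000 bp from the other factor and the split of shared sites by rank gap. GRO-seq and input samples were not used here. Python 3.11.15, numpy 2.4.6, scipy 1.17.1 and matplotlib 3.10.9 were used.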

Additional observations from a re-analysis of the deposited data

How the results depend on the processing

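Of 163 differences of shares under alternatives, 162 kept their direction, among them all 59 between JUND-only and FOSL2-only sites. The exception was the CBP difference of shared minus JUND-only sites, at 0.40 points with the upper 50% of the cofactor lists. Some of the 162 could not change. The 1000 bp setting drops no shared site, so its rank gap differences equal the main values. Counting peaks 1 by 1 leaves unshared sites as they were, so JUND-only minus FOSL2-only is the same there. Values of the comparisons between classes that moved beyond their interval or SD follow for the 4 cofactors, as percent for shared shares and as points for differences. With an overlap of 50%, 67.3% of FOSL2 and 65.0% of JUND sites were shared, JUND-only minus FOSL2-only was 25.02 for CBP, 23.8 for p300 and 26.5 for NCOR, and shared minus JUND-only was -4.40 for MED1. With the upper 50% of the JUND and FOSL2 lists, the shared shares were 74.5% and 72.0%, the median centre distance 14 bp and rho 0.79. JUND-only minus FOSL2-only was then 20.9 for MED1, 40.6 for CBP, 38.7 for p300 and 41.0 for NCOR, and shared minus JUND-only -13.6, -12.8, -15.2 and -19.1. With equal list lengths, both shared shares were 67.6%, JUND-only minus FOSL2-only was 27.8 for CBP, 26.5 for p300 and 30.3 for NCOR, and shared minus JUND-only -4.87 for MED1. With the upper 50% of the cofactor lists, JUND-only minus FOSL2-only was 6.75 for MED1, 16.0 for CBP, 15.6 for p300 and 19.9 for NCOR, and shared minus JUND-only was -2.32 for MED1, -2.17 for p300 and -7.22 for NCOR. With a cofactor centre within 500 bp, shared minus JUND-only was -4.99 for MED1, -3.84 for CBP and -11.9 for NCOR. With equal weight to score quintiles, JUND-only minus FOSL2-only was 14.9 for MED1, 31.4 for CBP, 28.8 for p300 and 33.6 for NCOR, and shared minus JUND-only -10.3, -16.6, -16.1 and -26.0. At sites without ATF2 and C/EBP, JUND-only minus FOSL2-only was 2.53 for MED1, 7.25 for CBP, 7.41 for p300 and 10.1 for NCOR, and shared minus JUND-only was -2.15 for MED1, -2.89 for p300 and -5.82 for NCOR. With peaks counted 1 by 1, shared minus JUND-only was -4.39 for MED1. The SD of this MED1 difference over its 2 lists was only 4.3e-03 points, so very small changes in it count as moved. With unshared sites kept only over 1000 bp from the other factor, chosen after seeing the data, 70.8% of FOSL2 and 68.7% of JUND sites were shared, and shared minus JUND-only was -3.93 for MED1. Leaving out either MED1 list gave 9.23 to 13.5 for JUND-only minus FOSL2-only and -4.31 for shared minus JUND-only. Of 45 differences between the end quintiles of the rank gap, 12 moved, to 29.6 and 30.3 for CBP, 25.6 and 26.7 for p300, 27.05 and 28.2 for NCOR, 12.0 for MED1 and 32.7 for ATF2 with the upper 50% of lists, and as given above without ATF2 and C/EBP. Of 42 differences between classes in ATF2, CEBPa and CEBPb, 14 moved. ATF2 JUND-only minus FOSL2-only ran from 39.6 to 54.3, and those of CEBPa and CEBPb reached 20.9 and 23.0. Shared minus JUND-only reached -30.3 for ATF2, -14.8 for CEBPa and -16.3 for CEBPb. The shared share in the top quintile moved in 5 of 10 values, with 93.99% for JUND and 98.3% for FOSL2 the lowest, and 6 of 12 named shared sites were still shared in the upper 50% of the lists. The named sites chosen for a wide percentile gap could not be shared there, since 1 factor stood at a percentile of 5.85 or lower. Shared shares under the upper 50% and equal length come from shorter lists, and the cause of the other changes was not tested. No paired analysis was possible because JUND and FOSL2 have 1 list each and no treatment groups were compared by a test. Read depth, which is unknown, limits what absence from a list shows.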

Other observations

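The rosiglitazone lists of the cofactors, which enter no comparison above, were set beside the untreated lists at the same sites, though JUND and FOSL2 themselves were mapped only in untreated cells. The labels give no treatment times for these lists. The peak names in the second MED1 rosiglitazone list carry a time of 1 hour and those in the NCOR rosiglitazone list one of 30 minutes, so times may differ between lists. CBP, p300 and NCOR have 1 list per condition, so no test was made. JUND-only sites kept the highest listed shares after rosiglitazone and FOSL2-only sites the lowest. For CBP the order of JUND-only and shared sites was not resolved, with shared minus JUND-only at -1.01 points (-2.19 to 0.16). CBP was then listed at 25.7% of JUND-only, 6.41% of FOSL2-only and 24.7% of shared sites, p300 at 31.4%, 8.57% and 25.6%, and NCOR at 44.6%, 15.8% and 35.0%. MED1 was listed at 20.4%, 4.38% and 14.1% in replicate 1 and at 13.7%, 3.66% and 8.73% in replicate 2.

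The share of sites with CBP was lower after rosiglitazone in each class, by -11.7 points at JUND-only, -4.66 points at FOSL2-only and -10.3 points at shared sites. The whole CBP list was also shorter, with 9515 peaks after rosiglitazone and 15383 before. Of untreated CBP sites, 59.8% of JUND-only (58.0 to 61.5), 47.1% of FOSL2-only (43.7 to 50.6) and 63.9% of shared sites (62.7 to 65.2) were listed again after rosiglitazone. For p300 the corresponding shares were 70.1%, 58.3% and 69.2%, and for NCOR 84.4%, 79.0% and 82.8%. MED1 was listed again at 66.9%, 50.8% and 66.3% of these sites in replicate 1 and at 56.4%, 50.4% and 55.1% in replicate 2. In all 5 pairs of lists the FOSL2-only sites were listed again least often, and this difference was not tested. The order was not resolved for MED1 replicate 2. There the intervals were 44.1 to 56.8 at FOSL2-only, 53.3 to 59.5 at JUND-only and 52.4 to 57.8 at shared sites. Cofactor peaks at FOSL2-only sites also ranked lower in the untreated lists, and the part of rank in this difference was not tested.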
